A study of Homo sapiens with 5 samples.

Results

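Genes for 10 secreted glycoproteins of the extracellular matrix were followed in lung cancer cells before and after they became resistant to gefitinib, an inhibitor of the EGFR tyrosine kinase. The 10 genes were FN1, TNC, SPARC, THBS1, THBS2, TGFBI, POSTN, FBN1, FBLN1 and VCAN, and they were picked by name from the 37181 entries of the expression table. Each of the 10 had 1 entry, and none of these entries joined the transcripts of another annotated gene. The cells were HCC827, a line from a human lung adenocarcinoma with a deletion in exon 19 of EGFR. Its resistant derivative, HCC827/GR, carries the same deletion and was selected by stepwise gefitinib exposure for more than 6 months. RNA of 3 HCC827/GR libraries (replicates 1, 2 and 3) and 2 HCC827 libraries (replicates 2 and 3, labelled gefitinib sensitive) was compared. The labels name 1 resistant line and do not say whether the replicates were separate cultures, so p-values measure the spread between these libraries only.

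The extracellular matrix is the network of proteins and sugars that cells secrete around themselves. Some of its glycoproteins build fibres, such as fibronectin and the fibrillins, and cells grip these fibres through integrin receptors. Matricellular proteins, such as the thrombospondins, tenascin C, SPARC and periostin, are secreted into the same space but act mainly on how cells adhere, migrate and respond to growth factors. Several of these genes are widely read as markers of epithelial-mesenchymal transition (EMT), a change in which epithelial cells take on features of mesenchymal cells.

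Values are FPKM, fragment counts scaled to transcript length and to the mapped fragments of a library, which allow levels to be compared between genes. The number of reads behind them is unknown, so no counting error can be given. Log2 fold changes are HCC827/GR against HCC827 on log2(FPKM + 1), a scale that understates changes of low genes, and adjusted p-values are from limma with Benjamini-Hochberg adjustment over the 16189 entries whose mean over the libraries was 0.5 FPKM or more. Library totals ran from 138854 to 167722 FPKM, and the Pearson correlation across tested entries was 0.913 to 0.927 within and 0.851 to 0.873 between the cell lines.

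Of the 10 glycoprotein genes, 8 passed this filter. THBS1, FBLN1, THBS2 and VCAN were higher in HCC827/GR cells, whereas FN1, TGFBI and TNC were lower. SPARC did not pass the test, and FBN1 and POSTN were too low to be tested. Among all entries tested, 5.26% were higher and 5.71% were lower at an adjusted p under 0.05, beside 4 and 3 of the 8 genes. The median log2 fold change of the 8 genes was 0.73, and that of all entries tested was 0.00143. With signs removed, the medians were 1.44 and 0.269. The libraries of the groups did not overlap for any of the 8 genes, of which 5 lay above and 3 below, beside 22.8% and 23.4% of all entries. FBLN1 passed the filter only through its level in HCC827/GR cells, so whether it was tested depended on that level. With no filter on low values, limma still called FBLN1 higher (adjusted p = 0.00876).

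**Figure D1:**
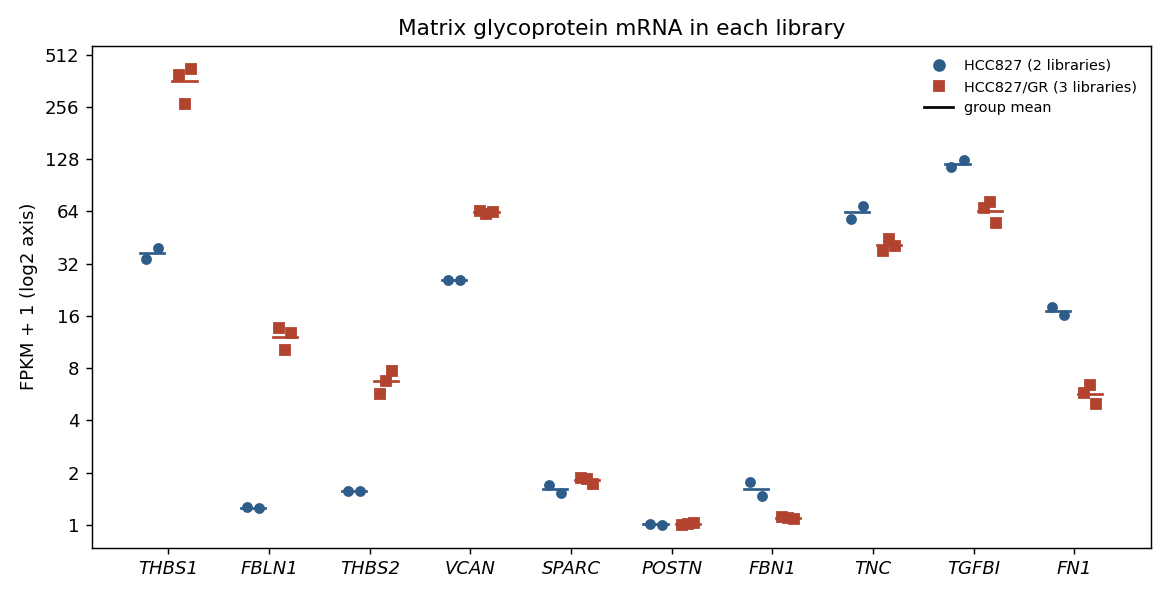
FPKM + 1 of the 10 genes on a log2 axis in the 2 HCC827 libraries (circles) and the 3 HCC827/GR libraries (squares), with horizontal lines at the group means, ordered by log2 fold change. THBS1, FBLN1, THBS2 and VCAN lie clearly apart and higher in HCC827/GR cells, and FN1, TGFBI and TNC lie lower.

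Thrombospondins are large calcium-binding glycoproteins that bind other matrix proteins and cell receptors such as CD47 and CD36. THBS1 (chromosome 15, 39581079 to 39599466 on GRCh38, plus strand, up to 22 exons) was measured at 391, 267 and 425 FPKM in replicates 1, 2 and 3 of HCC827/GR and at 33.0 and 38.6 FPKM in replicates 2 and 3 of HCC827. The lowest HCC827/GR library, replicate 2, still lay far above the HCC827 libraries. Its mean was 361 ± 83.2 FPKM (SD, n = 3) against 35.8 ± 3.95 FPKM (SD, n = 2), a ratio of 10.1. The log2 fold change was 3.27 ± 0.236 (SE), with adjusted p = 0.00521, and it ranked 20 by size among 8125 entries with a higher value. With this level THBS1 ranked 33 among all 37181 entries in HCC827/GR cells, and 559 in HCC827 cells.

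THBS2, the closest relative of THBS1 in the set (chromosome 6, 169215780 to 169254044, minus strand), was scarce in the parental cells. It had 4.69, 5.79 and 6.67 FPKM in HCC827/GR and 0.570 and 0.571 FPKM in HCC827 libraries. The groups lay far apart, and the HCC827 libraries were nearly alike. The ratio of the means was 10.02, close to that of THBS1, and the log2 fold change was 2.09 ± 0.153 (SE), with adjusted p = 0.00521. With a pseudocount of 0.1 in place of 1 it was 3.10. On the FPKM scale THBS1 stayed far more abundant, and the ratio of THBS1 to THBS2 was 83.3, 46.1 and 63.7 in HCC827/GR libraries and 57.8 and 67.5 in HCC827 libraries. These ranges overlapped.

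By log2 fold change, THBS1, FBLN1 and THBS2 rose most among the 8 tested genes, and FN1 fell most. The stretches before their start sites are shown so that their letters can be compared. They come from RefSeq promoters on GRCh38.p14, of which all 10 genes had one, and each is the longest part of the 250 bases before the start that no exon of GENCODE 29 overlaps. The stretches of THBS2 and FBLN1 lie within the GENCODE span of their gene, since the RefSeq start lies further inside it. Capitals mark CATTCC, the core letters bound by TEAD factors. They also mark GGGCGG, the GC box bound by Sp1. Each motif was searched on both strands, so its reverse complement is marked as well.
THBS1, chr15:39580829-39581078, plus strand: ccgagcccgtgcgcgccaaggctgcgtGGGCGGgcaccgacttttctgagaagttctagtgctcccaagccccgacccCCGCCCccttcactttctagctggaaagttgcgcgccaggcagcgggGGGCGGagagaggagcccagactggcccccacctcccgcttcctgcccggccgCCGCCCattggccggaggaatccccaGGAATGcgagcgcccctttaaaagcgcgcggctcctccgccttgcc
THBS2, chr6:169253897-169253989, minus strand: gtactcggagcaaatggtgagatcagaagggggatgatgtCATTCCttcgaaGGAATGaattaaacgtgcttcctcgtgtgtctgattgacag
FBLN1, chr22:45502633-45502831, plus strand: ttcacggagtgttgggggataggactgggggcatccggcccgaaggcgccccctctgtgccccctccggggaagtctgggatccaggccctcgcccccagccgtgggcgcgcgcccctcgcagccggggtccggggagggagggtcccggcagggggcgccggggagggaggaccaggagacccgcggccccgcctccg
FN1, chr2:215436173-215436252, minus strand: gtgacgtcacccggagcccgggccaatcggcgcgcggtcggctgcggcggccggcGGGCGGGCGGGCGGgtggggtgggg

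Over the whole 250 bases, CATTCC was present on either strand in THBS1, THBS2, SPARC and FBN1, and in 11.9% of the 35116 promoters. Of the genes that were called, these were 2 of the 4 that rose and 0 of the 3 that fell. In THBS2 the motif stood in both directions 6 bases apart, and the 18 bases from one end to the other read the same on both strands. This spacing was taken from THBS2, so its match there was fixed in advance. It was found in 1 of the 35116 promoters, that of THBS2 itself, and how often it would arise by chance was not tested. The GC box was present in FN1, TNC, THBS1, TGFBI, FBLN1 and VCAN, that is in 3 of 4 that rose and 3 of 3 that fell, and in 42.6% of all promoters. In FBLN1 it lies outside the stretch shown, which holds neither marked motif. The SMAD letters CAGAC were found in TNC, THBS1, THBS2, POSTN and FBLN1 and in 38.0% of all promoters. They were in 3 of the 4 genes that rose and 1 of the 3 that fell. None of the 10 held the ZEB E-box CACCTG, which 17.5% of promoters held. Only POSTN held the AP-1 letters TGAGTCA, which 4.20% held. The TATA letters TATAAA were in THBS2 and POSTN and in 10.7% of promoters, and so in 1 of the 4 that rose and 0 of the 3 that fell. No motif contains another. These matches describe letters in a window, and binding was not measured. The windows of SPARC and VCAN are wholly covered by GENCODE exons, and that of FBN1 lies within the GENCODE span of its gene.

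FBLN1 encodes fibulin 1, a calcium-binding glycoprotein that joins fibronectin fibres, basement membranes and elastic fibres. It lies on chromosome 22 from 45502238 to 45601135 on the plus strand. Its values were 12.6, 9.17 and 11.8 FPKM in HCC827/GR and 0.273 and 0.244 FPKM in HCC827 libraries. Every HCC827/GR library was far above the HCC827 libraries, where the gene was barely expressed. The means were 11.2 ± 1.79 FPKM (SD, n = 3) and 0.258 ± 0.0205 FPKM (SD, n = 2), a ratio of 43.3 that was the largest of the 10 genes. The log2 fold change was 3.26 ± 0.154 (SE), with adjusted p = 0.00234, and it was 4.97 with a pseudocount of 0.1 in place of 1.

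VCAN encodes versican, a large proteoglycan that binds hyaluronan and swells the matrix around cells. It had 63.5, 61.1 and 62.7 FPKM in HCC827/GR and 24.9 and 24.7 FPKM in HCC827 libraries. Both groups were tight, and they did not overlap. The log2 fold change was 1.30 ± 0.0827 (SE), adjusted p = 0.004, and its 95% interval ran from 1.08 to 1.51. VCAN lies on chromosome 5 from 83471465 to 83582303 on the plus strand, and VCAN-AS1 (83531352 to 83581320) lies inside it on the opposite strand. The larger of the 2 entries of VCAN-AS1 moved alongside, with 29.2 against 10.2 FPKM and a log2 fold change of 1.43 (adjusted p = 0.00374). Likewise, an entry of the antisense gene AC037198.2 over THBS1 had 21.2 against 2.73 FPKM and a log2 fold change of 2.60 (adjusted p = 0.00687). FSIP1, also opposite to THBS1, had 1.31 against 0.170 FPKM and did not pass the test (adjusted p = 0.0613). Nor did the antisense gene BX322234.1 over THBS2, with 0.593 against 0.445 FPKM (adjusted p = 0.630). Whether strand was kept in the libraries is not given in the sources used here. Reads of VCAN, THBS1 and THBS2 thus cannot be told apart from those of genes on the opposite strand.

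The 3 genes that fell are all annotated to cell adhesion, as are THBS1, THBS2 and VCAN. This term was given for 2.47% of the tested entries with an annotation. FN1 encodes fibronectin, the fibre-forming glycoprotein that cells bind through integrin alpha5 beta1 and that is often listed among mesenchymal genes. It lies on chromosome 2 from 215360440 to 215436172 on the minus strand and has up to 47 exons. FN1 had 4.72, 5.37 and 3.99 FPKM in HCC827/GR and 17.0 and 15.1 FPKM in HCC827 libraries. Each HCC827/GR library was well below each HCC827 library. The log2 fold change was -1.59 ± 0.14 (SE), with adjusted p = 0.00794, and HCC827 cells had 3.42 times the mean FPKM of HCC827/GR cells. FN1 was the only one of the genes that fell that also passed a fold change of 0.5 with an unadjusted p under 0.05, as did 3.97% of all entries. In the other direction, all 4 genes that rose passed a fold change of 2 with the same p, beside 2.96% of entries.

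TGFBI encodes a matrix protein named for its induction by TGF-beta, which binds integrins and collagens. It was the most abundant of the 10 genes in HCC827 cells, with 115 and 125 FPKM, and had 65.7, 71.7 and 53.8 FPKM in HCC827/GR cells. The groups did not overlap, although the HCC827/GR libraries varied among themselves. The log2 fold change was -0.91 ± 0.153 (SE), with adjusted p = 0.0309. The adjusted p was 0.0972, 0.0584, 0.118 and 0.133 without HCC827/GR replicate 1 or 2 or HCC827 replicate 2 or 3, and 0.049996 without HCC827/GR replicate 3.

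TNC encodes tenascin C, a matricellular protein of developing, wounded and tumour tissue that loosens the hold of cells on fibronectin. Its libraries had 36.7, 43.6 and 39.5 FPKM in HCC827/GR cells and 57.3 and 68.2 FPKM in HCC827 cells. All HCC827/GR libraries were below the HCC827 libraries, by a smaller step than for FN1. The log2 fold change was -0.64 ± 0.131 (SE), adjusted p = 0.0481, and its 95% interval ran from -0.98 to -0.30. Its adjusted p was above 0.05 when any 1 library was left out, at 0.136, 0.0873 and 0.12 without HCC827/GR replicates 1, 2 and 3 and at 0.0968 and 0.15 without HCC827 replicates 2 and 3. For FN1 this happened only without HCC827 replicate 2 (adjusted p = 0.0576), and none of the 4 genes that rose lost its call in this way. With no filter on low values, TNC and TGFBI lost their calls (adjusted p = 0.0859 and 0.0663) and FN1 did not.

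**Figure D2:**
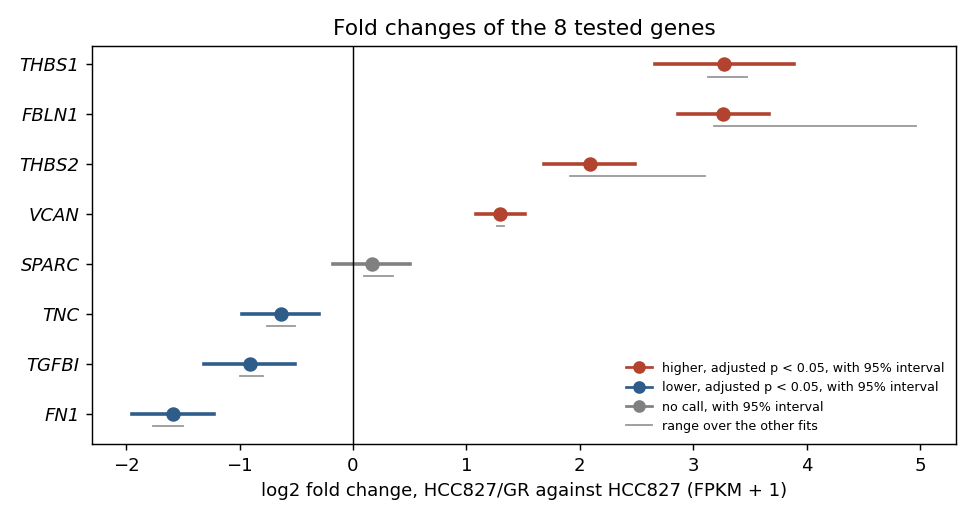
Log2 fold change of the 8 tested genes on log2(FPKM + 1), as points with 95% intervals from limma, coloured by call. Grey lines under the points give the range over the other fits. The intervals of THBS1, FBLN1, THBS2 and VCAN lie above 0 and those of TNC, TGFBI and FN1 lie below 0, while that of SPARC spans 0.

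The remaining 3 genes were expressed at low levels in both cell lines. SPARC, which encodes a small collagen-binding matricellular protein, had 0.860, 0.843 and 0.709 FPKM in HCC827/GR and 0.690 and 0.531 FPKM in HCC827 libraries. The values lay above in HCC827/GR cells by a small margin, and the log2 fold change of 0.16 did not pass the test (standard error 0.13, adjusted p = 0.481). Its 95% interval, from -0.17 to 0.50, leaves room for a small change in either direction.

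FBN1 encodes fibrillin 1, the backbone of microfibrils. It had 0.112, 0.0968 and 0.0780 FPKM in HCC827/GR and 0.755 and 0.458 FPKM in HCC827 libraries. The groups were apart, but the mean over all libraries was 0.300 FPKM, below the filter. With no filter on low values its log2 fold change was -0.55 (standard error 0.109) and its adjusted p was 0.0855. The pseudocount weighs on this value, and the log2 ratio of the mean FPKM was -2.66, with 6.34 times the level in HCC827 cells. An exact permutation test over the libraries, two-sided, gave p = 0.1, the smallest that 3 libraries against 2 allow. POSTN, which encodes periostin, a relative of TGFBI secreted mainly by stromal cells, was listed at 0 or at most 0.0226 FPKM in every library.

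Together, the 10 genes summed to 580, 464 and 604 FPKM in HCC827/GR and 249 and 274 FPKM in HCC827 libraries. The ratio of these sums, 2.10, rested on THBS1. Without THBS1, the other 9 genes summed to 189, 198 and 179 FPKM in HCC827/GR libraries and 216 and 235 FPKM in HCC827 libraries. THBS1 made up 57.4% to 70.3% of the summed level in HCC827/GR cells and 13.2% to 14.1% in HCC827 cells. TGFBI went from 45.8% to 46.0% in HCC827 cells to 8.90% to 15.4% in HCC827/GR cells, and TNC from 23.0% to 24.9% to 6.33% to 9.40%. VCAN made up 9.01% to 10.01% in HCC827 and 10.4% to 13.2% in HCC827/GR cells, which did not overlap.

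**Figure D3:**
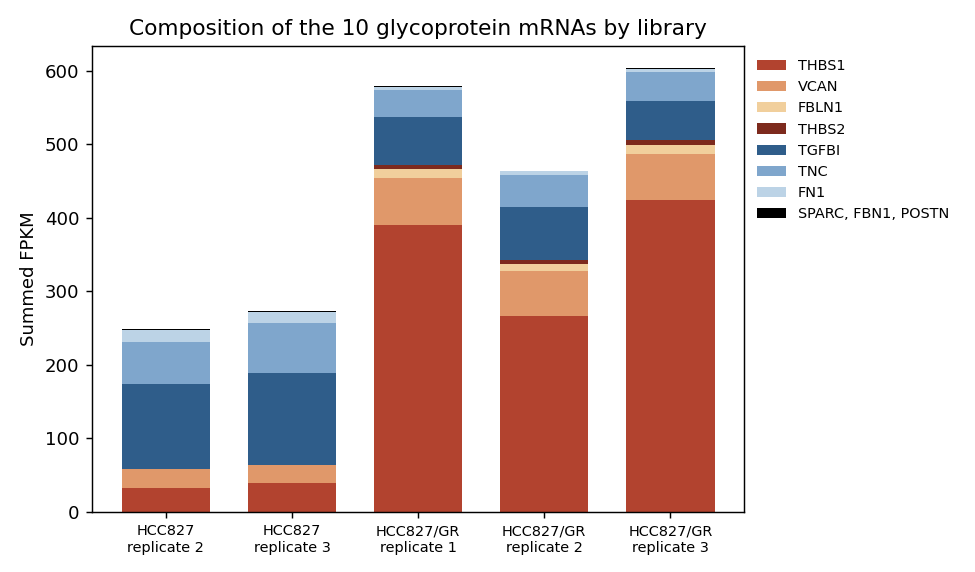
Summed FPKM of the 10 genes in each library, stacked by gene, with the genes that rose in red and orange shades and those that fell in blue shades. THBS1 alone is the largest part of each HCC827/GR column, and the other 9 genes sum to a mean of 189 FPKM there and 226 FPKM in HCC827 cells.

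In order of mean level, HCC827 cells had TGFBI, TNC, THBS1, VCAN and FN1, whose libraries did not overlap with those of the next gene, and then SPARC, FBN1 and THBS2, which overlapped. FBLN1 and POSTN came last. HCC827/GR cells had THBS1 first, then TGFBI and VCAN, which overlapped, then TNC and FBLN1, then THBS2 and FN1, which overlapped, and then SPARC, FBN1 and POSTN.

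In the deposited annotation, calcium ion binding was given for the 4 genes that rose, and for SPARC and FBN1, and for 0 of the 3 that fell, beside 2.85% of the tested entries with an annotation. This term was singled out after the values were seen. Among other extracellular matrix entries, 6 of 23 with calcium ion binding were higher and 2 were lower, and of 182 without it 27 were higher and 17 lower. The KEGG pathway ECM-receptor interaction held FN1, TNC, THBS1 and THBS2, of which 2 rose and 2 fell. It held 1.01% of the tested entries with a KEGG annotation. Of its 36 other tested entries, 6 were higher and 5 were lower.

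The genes were spread over 7 chromosomes. Around each, the 5 tested protein-coding genes on either side had a median log2 fold change between -0.08 and 0.66. The highest median was that of the neighbours of TNC, a gene that itself fell, and 3 of its 10 neighbours were higher and 1 lower. For THBS1 the neighbours' median was -0.08, for FBLN1 0.15, for THBS2 0.05, for VCAN -0.01 and for FN1 -0.07.

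Other genes of the same matrix were grouped into lists by role, fixed with earlier results of these data known. Counts for these lists stand beside 5.26% higher and 5.71% lower among all entries tested, whose median log2 fold change was 0.00143. Among 6 tested close relatives of the 10 genes, FBLN5 was higher, with 1.23 against 0.217 FPKM (log2 fold change 0.87, adjusted p = 0.0176), and 4 had no call. EFEMP1, which encodes fibulin 3, was lower, with 1.80, 1.38 and 1.60 FPKM in HCC827/GR cells against 17.2 and 21.7 FPKM in the parental libraries. Its log2 fold change was -2.97 ± 0.143 (SE), with adjusted p = 0.00234. FBLN5, like FBLN1, passed the filter only through its level in HCC827/GR cells. FBLN2 was not tested, and its mean was 0.114 FPKM in HCC827/GR and 0.287 FPKM in HCC827 cells.

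Of 11 tested genes for other matricellular and related secreted proteins, 6 were higher, 1 was lower and 4 had no call, with a median log2 fold change of 1.28. IGFBP7, which encodes a secreted IGF-binding protein, had 28.6 ± 12.5 FPKM (SD, n = 3) against 1.51 ± 0.0406 FPKM (SD, n = 2) and a log2 fold change of 3.45 (adjusted p = 0.0162). MATN2, which encodes matrilin 2, rose by 2.85 (adjusted p = 0.00248), and SPP1, which encodes osteopontin, rose by 2.43 (adjusted p = 0.0137). The others that rose were NPNT, CYR61 and MATN3, which are named beyond the rule for naming. NPNT had 1.66 against 0.0362 FPKM and passed the filter only through HCC827/GR cells. SRPX2 fell by 1.68 on the log2 scale (adjusted p = 0.0113).

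Among elastic fibre and microfibril partners, 1 of 6 tested genes was higher, namely ADAMTSL4, with a log2 fold change of 1.28 (adjusted p = 0.0159), and 0 were lower. ADAMTSL4 had 2.59 against 0.468 FPKM and passed the filter only through HCC827/GR cells. Of the list for hyaluronan and small proteoglycans, 4 genes were tested, namely HAS3, CD44, HMMR and HSPG2. HSPG2, which encodes the large basement membrane proteoglycan perlecan, rose by 1.29 (adjusted p = 0.0117). The small proteoglycans of this list, such as DCN, BGN and LUM, were too low to be tested. CD44, the receptor of hyaluronan, had 29.5 against 20.9 FPKM with an adjusted p of 0.0757.

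Of 11 tested receptors of these glycoproteins, 1 was higher and 1 was lower, with a median log2 fold change of -0.02. ITGB8, an integrin subunit that activates latent TGF-beta, rose from 5.59 to 15.5 FPKM (log2 fold change 1.30, adjusted p = 0.0309), and ITGA2, a subunit of the collagen receptor alpha2 beta1, fell from 12.8 to 2.16 FPKM (log2 fold change -2.11, adjusted p = 0.01). The fibronectin receptor subunits ITGA5 and ITGB1 had 30.9 against 21.4 FPKM and 126 against 109 FPKM, and neither passed the test (adjusted p = 0.0663 and 0.249). ITGAV had 40.0 against 39.8 FPKM (adjusted p = 0.964) and the thrombospondin receptor CD47 had 14.8 against 16.7 FPKM (adjusted p = 0.516).

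Among 11 tested enzymes that cut or crosslink these proteins, 3 were higher and 1 was lower. ADAMTS9, a protease that cleaves versican, rose by 0.93 (adjusted p = 0.0142), TLL1 by 0.75 (adjusted p = 0.0215) and HTRA1 by 0.75 (adjusted p = 0.0268), while PCSK6 fell by 0.95 (adjusted p = 0.0194). PCSK6 had 0.435 against 1.76 FPKM and passed the filter only through HCC827 cells. The TGF-beta ligands did not pass the test, with 12.4 against 11.3 FPKM for TGFB1 (adjusted p = 0.465) and 11.7 against 8.16 FPKM for TGFB2 (adjusted p = 0.0636). TGFB3 was below the filter, with 0.382 against 0.215 FPKM. Of the genes named from these lists with a call, EFEMP1, MATN2 and ITGA2 kept an adjusted p under 0.05 in 13 of 15 other fits, and the rest did so in fewer, down to 6 of 14 for FBLN5.

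**Figure D4:**
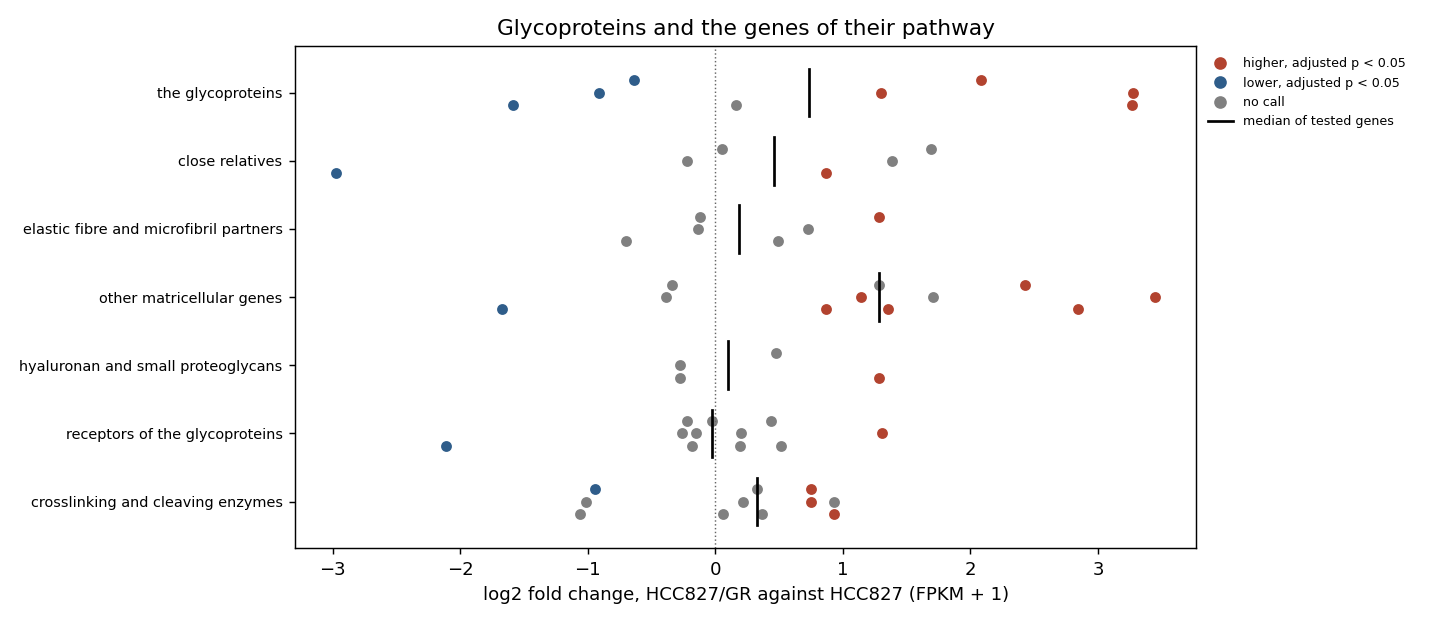
Log2 fold change of every tested gene of the set and of 6 lists of related genes, coloured by call, with black bars at the medians. The median is 0.73 for the glycoproteins, 1.28 for the other matricellular genes and -0.02 for the receptors.

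Markers of cell types were looked at in the same libraries, where 5.26% of all entries tested were higher and 5.71% were lower. Of the lung epithelial markers, 5 of 6 tested were lower and 0 were higher in HCC827/GR cells, and their summed level was 443 to 574 FPKM against 1068 to 1186 FPKM. The largest falls were those of EPCAM (log2 fold change -3.04, adjusted p = 0.00349), CDH1 (-1.93, adjusted p = 0.0125) and NKX2-1 (-1.64, adjusted p = 0.0115). Of the 9 fibroblast markers in the table, 2 were tested and 0 called, and their summed level was 2.74 to 3.09 FPKM in HCC827/GR and 3.59 to 3.61 FPKM in HCC827 libraries, far below that of the glycoproteins. The leukocyte and endothelial markers summed to 0.357 to 0.567 FPKM in HCC827/GR and 4.30 to 5.40 FPKM in HCC827 libraries, where 1 of the 10 entries of PECAM1, listed at 0 in HCC827/GR, had 4.34 and 3.32 FPKM and passed the filter through those libraries alone. In bulk RNA, fewer cells of a type and less RNA per cell cannot be told apart, and the part of the epithelial markers' change in these results was not tested. With Ballgown's model in place of limma, no glycoprotein gene had an adjusted p under 0.05, and the values ran from 0.0994 for VCAN to 0.293 for TGFBI among the 7 called genes.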

How the data were processed

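Total RNA of HCC827/GR and HCC827 cells was sequenced. The authors trimmed reads with Cutadapt, mapped them with Bowtie2 and TopHat2, assembled them with StringTie and deposited 1 FPKM value per gene or merged locus and library. The labels' processing notes list genome build hg18, and versions and strandedness are not given in the sources used here. The paper describes rRNA-depleted RNA and an mRNA library, whereas the labels describe a small RNA library, so which RNA was captured is not settled by these sources. The table holds no coordinates, and positions were taken from GENCODE 29 (GRCh38) through transcript identifiers. In the deposited table, 1 FPKM column matched no sample and was left out. A symbol with several entries was represented by its most abundant one.

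HCC827/GR was compared with HCC827 by limma 3.58.1 in R 4.3.3 (lmFit and trended eBayes, two-sided tests) without covariates. The input was log2(FPKM + 1) of entries whose mean reached 0.5 FPKM. Python 3.11.15 served for the tables and plots. The limma fit was tested on simulated libraries with known changes, by its unadjusted p-values and its fold changes. Genes of the lists were named when they were among the 3 largest rises or falls with an adjusted p under 0.05, together with ITGA5, ITGB1, ITGAV, CD44, CD47 and the TGF-beta ligands. ITGB6 was also on this rule but was not analysed here. Of a list of TGF-beta genes only the ligands are reported here. The members, the lists and the tests were chosen with earlier results of these data known. Alternatives were another pseudocount, other filters, scalings and models (among them the model of Ballgown, with a covariate per library, and untrended limma), a replicate block, summed entries, the ratio of means and each library left out.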

Additional observations from a re-analysis of the deposited data

How the results depend on the processing

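The direction of each of the 8 tested glycoprotein genes was the same in every alternative run for it, and the 4 genes that rose stayed called in all but Ballgown's model and the replicate block. The weaker side was the falls. With no filter on low values, 504 of 36011 entries were called higher and 757 lower. Of the 10 genes, 4 were then called higher and 1, FN1, was called lower. Ballgown's model called 2 entries higher and 9 lower, with 0 glycoprotein genes in either direction. At an unadjusted p under 0.05 it gave 4 of the 8 genes higher and 1 lower, beside 1509 and 1383 of the 16189 entries. With each library left out in turn, entries called higher numbered 202 to 485 and entries called lower 287 to 477, the glycoprotein genes called higher stayed at 4, and those called lower numbered 0 to 2. The fits with 1 HCC827 library assume that it varies like the HCC827/GR libraries. A replicate block called 0 entries and 0 of the genes by limma in either direction, against 1676 entries higher and 1869 lower, 4 and 3 of the genes among them, at an unadjusted p under 0.05. It leaves 1 residual degree of freedom per entry. The labels do not say whether replicates of the same number share more than that number. Between the groups, the correlations of the deviations of replicates 2 and 3 were 0.0328 and 0.0147. With only 2 HCC827 libraries, the deviations of one mirror those of the other, so these values cannot decide it. Without the trend, 2 genes were called lower, and TNC had an adjusted p of 0.0557. No scaling moved the median log2 fold change of all entries by as much as 0.1, and it lay between -0.00988 and 0.0258 under them. The ratio of means carries no p-value of its own and so gives no count of calls at an adjusted p under 0.05. FPKM carry no read counts, so depth cannot be weighed.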
